A study of Homo sapiens with 4 samples.

Results

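The genes described here encode the cytoplasmic deadenylases of human cells: the scaffold CNOT1, the subunits CNOT2, CNOT3 and CNOT10 and the nucleases CNOT6, CNOT6L, CNOT7 and CNOT8 of the CCR4-NOT complex, and the nuclease PAN2 with its partner PAN3. They were taken by gene symbol from the sense-strand entries of the deposited tables, and were 10 of 57428 genes with such an entry. The data are nascent RNA levels measured by Bru-seq, in which cells incorporate bromouridine and the labelled RNA is isolated with an antibody before sequencing, so a level reports RNA synthesis over the labelling time more than the standing pool of mRNA. The cells were U2OS, an osteosarcoma line, stably overexpressing GFP-DCP1a (a tagged cofactor of mRNA decapping) and kept under G418 in McCoy's 5A medium. The hypertonic group had 2 libraries from cells in medium brought to 300 mM Na+ with concentrated PBS. The isotonic group had 2 libraries from cells in medium at 150 mM Na+ that received the same volume of ordinary PBS. Both groups took up bromouridine at 2 mM over 30 min before RNA extraction, with a chase of 0 h, and both carry the transgene, so no group shows these genes in unmodified U2OS cells. The labels state neither how long the cells stayed in hypertonic medium nor whether the replicates were separate cultures, so that p-values measure the spread between libraries, which may be technical.

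Deadenylation, the shortening of the poly(A) tail, is the first and usually the rate-limiting step of mRNA decay; decapping, the step in which DCP1a acts, commonly follows it. PAN2-PAN3 is thought to trim long tails that are coated with poly(A)-binding protein, and CCR4-NOT removes the rest. CCR4-NOT is built on CNOT1, which holds 1 nuclease of the CAF1 type (CNOT7 or CNOT8) and through it 1 of the CCR4 type (CNOT6 or CNOT6L), and both complexes are recruited to particular mRNAs by RNA-binding proteins and the microRNA machinery. Several of these proteins are found in P-bodies, the cytoplasmic granules that DCP1a also marks.

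The libraries held 28367788 and 23048409 counts in hypertonic replicates 1 and 2 and 44888307 and 23410787 counts in isotonic replicates 1 and 2. Log2 scaled read counts (CPM) over all tested genes had a Pearson correlation of 0.904 between the hypertonic libraries, against 0.98 between the isotonic ones. Hypertonic replicate 1 correlated no better with its own replicate than with the isotonic libraries (0.911 and 0.912), and values that its omission moves most are given without it too. Of 8 markers of the mesenchymal lineage of U2OS, 7 exceeded 0.1 RPKM (reads scaled to gene length and library) in all 4 libraries. The list summed to 40.2 and 28.9 RPKM in hypertonic and 31.4 and 27.5 RPKM in isotonic libraries, and COL1A2 was at or near 0. Of 9 markers of other lineages, KRT5, CD3E, ALB and HBB were at 0 in all 4 libraries, and 1, KRT8, exceeded 0.1 RPKM in all 4. The list summed to 0.525 and 0.991 RPKM in hypertonic and 0.415 and 0.393 RPKM in isotonic libraries. KRT8 alone measured 0.412 and 0.720 RPKM in hypertonic and 0.242 and 0.319 RPKM in isotonic libraries. RUNX2, of the mesenchymal list, measured 0.81 and 0.29 RPKM in hypertonic and 0.69 and 0.40 RPKM in isotonic libraries.

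All 10 deadenylase genes were transcribed in both conditions, and none of them passed the test for a difference. Fitted hypertonic levels of most genes lay near the isotonic ones. Of the fitted log2 fold changes (hypertonic over isotonic) 9 of 10 were negative, with a median of -0.14, and 8 of 10 were smaller than their own standard error. These fits average 2 hypertonic libraries that differed, by a median absolute log2 ratio of 0.70, so single hypertonic libraries often lay further from the isotonic level. CNOT7 stood lowest, at 0.490 times its isotonic level, and PAN2, at 1.45 times, was the only gene with a positive value. The test was edgeR's quasi-likelihood test over all 21238 genes that passed the expression filter, 10 deadenylase genes among them, at a Benjamini-Hochberg adjusted p of 0.05. It called 0 of 10 of these genes, against a background of 0% of all genes tested. DESeq2 and limma-voom also called 0 of the 10, while over all genes DESeq2 called 731 and limma-voom called 0. At an unadjusted p under 0.05, 1 of 10 deadenylase genes (CNOT7) was lower and 0 were higher in hypertonic libraries, beside 2.01% of all genes lower and 8.89% higher. In CPM 1 of 10 genes, again CNOT7, had its 2 hypertonic values beneath its 2 isotonic values, beside 17.5% of all genes tested, and 0 of 10 had them above, beside 22.5%. The median log2 fold change was 0.04 over all genes tested and -0.33 over the 4828 protein-coding genes with a mean level of at least 1 RPKM, of which 77.2% were negative. Of these coding genes 6.61% were lower at an unadjusted p under 0.05, 38.7% had both hypertonic values beneath the isotonic ones and 5.32% had them above. The negative sign of most members is thus common among expressed coding genes, and their median lay closer to 0 than the median of these. Scaling by total count or by upper quartile moved the median of all genes to 0.26 and 0.23, and under both of these scalings 7 of 10 deadenylase genes had positive values, with medians of 0.08 and 0.04.

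The data limit changes more tightly for some genes than for others. For 8 of 10 genes the 95% interval of the log2 fold change reached below -1, a halving, and for 3 of 10 it reached above 1, a doubling. CNOT10 had an interval of -0.87 to 0.82, which leaves out both, whereas that of CNOT3 ran from -1.59 to 1.33.

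**Figure D1:**
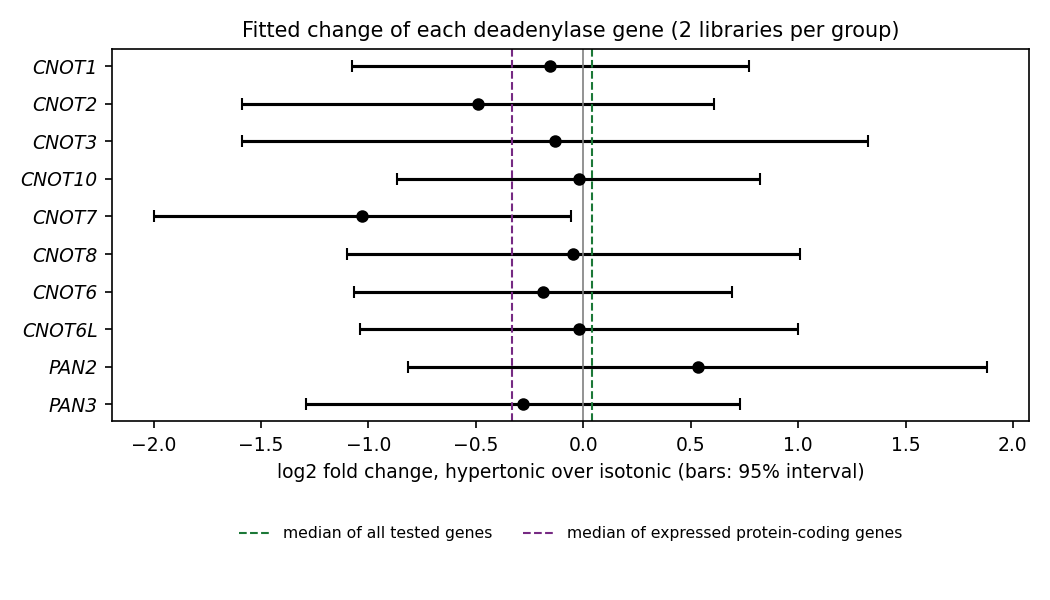
Fitted log2 fold change (hypertonic over isotonic, 2 libraries per group) of each deadenylase gene with its 95% interval, ordered by role; dashed lines give the median of all tested genes (0.04) and of expressed protein-coding genes (-0.33). The interval of CNOT7 (-2.0 to -0.06) lies below 0, and those of the other 9 genes include 0.

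Levels per length, over exons and introns together, differed by less than 10 times between the group means of the set. In hypertonic libraries CNOT1 averaged 2.24 ± 0.16 RPKM and CNOT7 2.05 ± 0.91, followed by CNOT8 at 1.57 ± 0.093, CNOT2 at 1.34 ± 0.53, CNOT6 at 1.22 ± 0.14 and CNOT3 at 1.11 ± 1.04 RPKM, and the rest lay between PAN3 at 1.11 ± 0.30 and PAN2 at 0.637 ± 0.37 RPKM (SD, n = 2 for each), with every neighbouring pair in this order overlapping between libraries. In isotonic libraries CNOT7 averaged 3.96 ± 1.5 RPKM and CNOT1 2.49 ± 0.16 RPKM, followed by CNOT2 at 1.95 ± 0.31, CNOT8 at 1.61 ± 0.54, PAN3 at 1.38 ± 0.11 and CNOT6 at 1.37 ± 0.40 RPKM. CNOT3 at 1.07 ± 0.17, CNOT10 at 0.953 ± 0.10, CNOT6L at 0.808 ± 0.036 and PAN2 at 0.404 ± 0.074 RPKM came last. In the isotonic order the 2 libraries of CNOT7 lay above those of CNOT1 and those of CNOT1 above those of CNOT2, as did those of CNOT10 over CNOT6L and CNOT6L over PAN2, whereas neighbours in the order from CNOT2 down to CNOT10 overlapped. CNOT1, which has no nuclease activity of its own, contributed 19.8 and 15.0% of the summed RPKM of the 10 genes in hypertonic and 14.4 and 17.0% in isotonic libraries. CNOT7 contributed 11.8 and 19.0% in hypertonic and 27.8 and 20.8% in isotonic libraries, with no overlap between the groups.

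**Figure D2:**
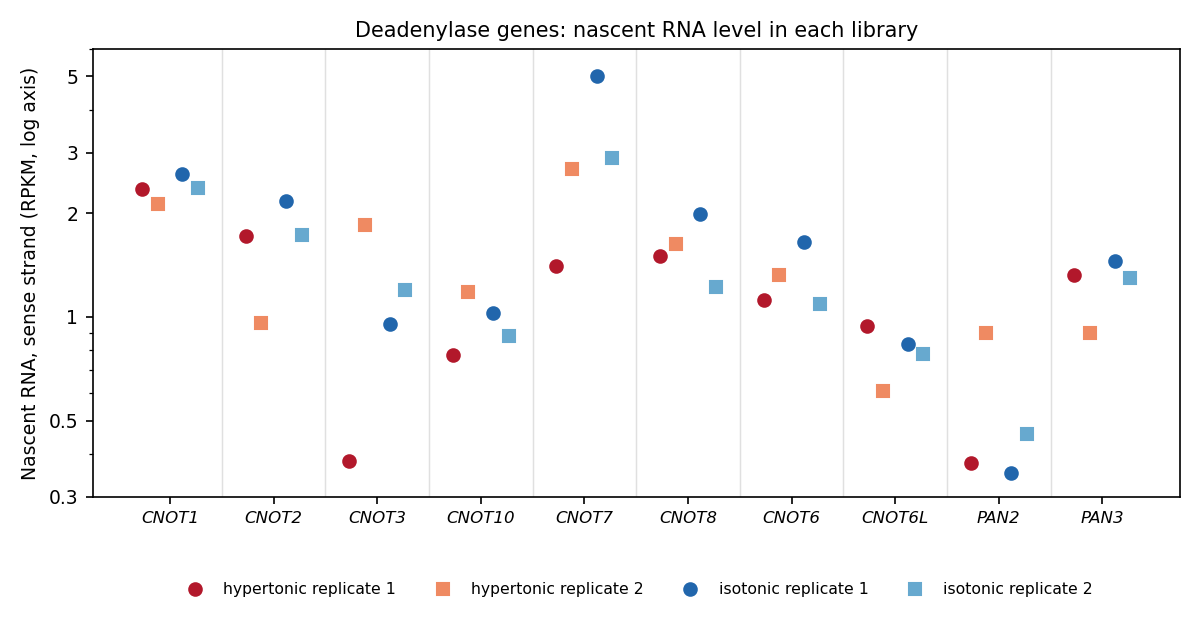
Sense-strand nascent RNA level (RPKM, log axis) of each deadenylase gene in the 2 hypertonic (red) and the 2 isotonic (blue) libraries. CNOT7 is lower in both hypertonic libraries (1.40 and 2.69 RPKM) than in both isotonic ones (5.02 and 2.90 RPKM), and the hypertonic libraries lie far apart for CNOT3 (0.381 and 1.85 RPKM).

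CNOT1 is the large scaffold on which the complex assembles (chromosome 16, 58519951 to 58629886, minus strand, GRCh38). It measured 2.35 and 2.13 RPKM in hypertonic and 2.60 and 2.37 RPKM in isotonic libraries. On this scale both hypertonic libraries were lower, by little; in CPM, which uses the scaling of the test, the values were 379 and 247 in hypertonic against 348 and 348 in isotonic libraries, with hypertonic replicate 1 above both isotonic ones. The log2 fold change was -0.15 ± 0.41 (SE; edgeR adjusted p = 0.991). SETD6, AC009118.3 and small nucleolar RNA genes lie within or across the locus, and where genes on one strand overlap, the deposited tables count the shared bases apart from both.

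CNOT2 and CNOT3 form a dimer, the NOT module, that binds the C-terminal part of CNOT1. CNOT2 (chromosome 12, 70242994 to 70354993, plus strand) measured 1.72 and 0.962 RPKM in hypertonic and 2.18 and 1.73 RPKM in isotonic libraries. CNOT3 (chromosome 19, 54137728 to 54155681, plus strand) measured 0.381 and 1.85 RPKM in hypertonic and 0.952 and 1.19 RPKM in isotonic libraries. The partners thus deviated in opposite directions within the hypertonic group: replicate 1 held 2.47 times as much CNOT2 (in CPM) as replicate 2 and 0.286 times as much CNOT3. Their log2 fold changes were -0.49 ± 0.49 for CNOT2 (edgeR adjusted p = 0.877) and -0.13 ± 0.64 for CNOT3 (edgeR adjusted p = 0.995). Without hypertonic replicate 1 they were -1.32 for CNOT2 and 0.47 for CNOT3, and without hypertonic replicate 2 they were 0.02 and -1.3.

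CNOT10, which with CNOT11 forms a module at the N-terminal part of CNOT1 (chromosome 3, 32685145 to 32773875, plus strand), differed least between the hypertonic replicates in CPM, at a log2 ratio of -0.14. It measured 0.776 and 1.18 RPKM in hypertonic and 1.02 and 0.882 RPKM in isotonic libraries. In CPM the values were 100.1 and 110.2 in hypertonic against 110.0 and 103.6 in isotonic libraries, and the groups overlapped. The log2 fold change was -0.02 ± 0.37 (edgeR adjusted p = 0.998).

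CNOT7 and CNOT8 are the alternative CAF1-type nucleases, which also bridge the CCR4-type nucleases to CNOT1. CNOT7 (chromosome 8, 17224964 to 17246878, minus strand) measured 1.40 and 2.69 RPKM in hypertonic and 5.02 and 2.90 RPKM in isotonic libraries. In CPM the values were 45.2 and 62.6 in hypertonic and 135 and 85.3 in isotonic libraries, so on either scale the 2 hypertonic values were beneath the 2 isotonic ones. In a bulk culture, fewer transcribing cells and less RNA per cell cannot be told apart. The log2 fold change was -1.03 ± 0.43 with a 95% interval of -2.0 to -0.06 (edgeR adjusted p = 0.425). It stayed negative under all 14 alternatives, between -0.70 and -1.36, with adjusted p from 0.0259 to 1.00, and passed the threshold in 1 of them, without hypertonic replicate 2 (-1.29, edgeR adjusted p = 0.0259). In that fit 4918 genes passed, so the call is not particular to CNOT7.

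CNOT8 (chromosome 5, 154858249 to 154876793, plus strand) measured 1.5 and 1.63 RPKM in hypertonic and 1.99 and 1.23 RPKM in isotonic libraries, with the hypertonic values between the isotonic ones. Its log2 fold change was -0.05 ± 0.47 (edgeR adjusted p = 0.996). Within a library, where the scaling between libraries drops out, CNOT7 stood at 0.933 and 1.65 times CNOT8 in hypertonic and at 2.53 and 2.37 times CNOT8 in isotonic libraries. The isotonic libraries thus held more than 2 times as much CNOT7 as CNOT8 per length, while the hypertonic ones held about equal amounts or a modest excess. The log2 ratio averaged 0.31 ± 0.58 in hypertonic and 1.29 ± 0.07 in isotonic libraries (SD, n = 2 each), a difference of -0.98 (exact two-sided permutation test, p = 0.33, the smallest that 2 against 2 libraries allow). Leaving out each library in turn gave differences between -1.39 and -0.57.

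CNOT6 and CNOT6L are the alternative CCR4-type nucleases. CNOT6 (chromosome 5, 180494417 to 180578405, plus strand) measured 1.12 and 1.32 RPKM in hypertonic and 1.65 and 1.09 RPKM in isotonic libraries. CNOT6L (chromosome 4, 77713387 to 77819368, minus strand) measured 0.944 and 0.611 RPKM in hypertonic and 0.833 and 0.782 RPKM in isotonic libraries. Both hypertonic values of CNOT6 lay within the isotonic range, and those of CNOT6L lay on either side of it. The log2 fold changes were -0.19 ± 0.39 for CNOT6 (edgeR adjusted p = 0.979) and -0.02 ± 0.45 for CNOT6L (edgeR adjusted p = 0.999). The CNOT6 to CNOT6L ratio was 1.19 and 2.2 in hypertonic and 1.98 and 1.39 in isotonic libraries, so the groups overlapped (log2 difference -0.05; exact two-sided permutation test, p = 1).

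PAN2 is the catalytic subunit of the PAN complex (chromosome 12, 56316337 to 56334053, minus strand), and PAN3 is the pseudokinase that binds it and recruits it to mRNA (chromosome 13, 28138506 to 28295335, plus strand). PAN2 measured 0.376 and 0.899 RPKM in hypertonic and 0.352 and 0.457 RPKM in isotonic libraries, with the high value in hypertonic replicate 2. PAN3 measured 1.32 and 0.896 RPKM in hypertonic and 1.45 and 1.3 RPKM in isotonic libraries, with the low value in the same replicate. The log2 fold changes were 0.53 ± 0.60 for PAN2 (edgeR adjusted p = 0.902) and -0.28 ± 0.45 for PAN3 (edgeR adjusted p = 0.957). The PAN2 to PAN3 ratio was 0.285 and 1.00 in hypertonic and 0.243 and 0.351 in isotonic libraries (log2 difference 0.87; exact two-sided permutation test, p = 0.667), and without hypertonic replicate 2 the difference was -0.04.

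The remaining CCR4-NOT subunits on the list numbered 4. Their median log2 fold change was -0.59, 3 of 4 were negative, 0 passed the adjusted threshold in edgeR and 1 of 4 had an unadjusted p under 0.05. CNOT9, the subunit that contacts TNRC6 and other recruiting proteins, measured 1.15 and 1.97 RPKM in hypertonic and 3.57 and 2.28 RPKM in isotonic libraries, with no overlap (log2 fold change -0.97 ± 0.41; edgeR adjusted p = 0.432). CNOT11, the partner of CNOT10, measured 0.448 and 1.70 RPKM in hypertonic and 1.76 and 1.74 RPKM in isotonic libraries, mainly low in hypertonic replicate 1 (-0.86 ± 0.57; edgeR adjusted p = 0.696), and stood at -0.35 without that library. CNOT4, a ubiquitin ligase, stood at -0.31 ± 0.45 (edgeR adjusted p = 0.947). TNKS1BP1 was the positive one.

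Of 7 other deadenylases 5 had negative values, with a median of -0.43, and 0 passed the adjusted threshold in edgeR; 1 of 7 had an unadjusted p under 0.05. This was PNLDC1, a nuclease that trims piRNA precursors in the mouse germline, at 0.448 and 0.400 RPKM in hypertonic and 0.0892 and 0.0603 RPKM in isotonic libraries (log2 fold change 2.5 ± 0.67; edgeR adjusted p = 0.224). DESeq2 called PNLDC1 (adjusted p = 0.00492), as did edgeR without hypertonic replicate 2 (adjusted p = 0.00418), while without hypertonic replicate 1 the log2 fold change was 2.11 (edgeR adjusted p = 0.0938). NOCT, a circadian protein of the CCR4 nuclease family, measured 2.55 and 1.64 RPKM in hypertonic and 2.96 and 5.06 RPKM in isotonic libraries (-0.92 ± 0.50; edgeR adjusted p = 0.589). PDE12, a mitochondrial nuclease that removes poly(A), stood at -0.94 ± 0.64 (edgeR adjusted p = 0.707), and at -0.42 without hypertonic replicate 1.

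Among poly(A)-binding proteins and their partners 9 of 10 were tested, 4 were negative and 5 positive, the median was 0.19, and 0 passed the adjusted threshold in edgeR. PABPC1L, a poly(A)-binding protein known from oocytes, measured 1.66 and 1.23 RPKM in hypertonic and 0.513 and 0.594 RPKM in isotonic libraries (1.40 ± 0.46; edgeR adjusted p = 0.317), and its log2 fold change was 0.84 without hypertonic replicate 1. PAIP1, which binds poly(A)-binding protein and favours translation, stood at -1.0 ± 0.42 (edgeR adjusted p = 0.429), and PAIP2, which antagonises poly(A)-binding protein, at 0.71 ± 0.47 (edgeR adjusted p = 0.690), or 0.14 without hypertonic replicate 1.

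The adaptors and recruiters, proteins that bring CCR4-NOT or PAN to mRNA, showed no common direction: of 28 tested of 29 listed, 13 were negative and 15 positive, with a median of 0.09, and 0 had an unadjusted p under 0.05. TOB1, an antiproliferative protein that tethers CNOT7 to poly(A)-binding protein, measured 6.20 and 1.88 RPKM in hypertonic and 1.57 and 1.39 RPKM in isotonic libraries (1.55 ± 0.71; edgeR adjusted p = 0.484). The TOB1 value is carried by hypertonic replicate 1: without that library it was 0.041 (edgeR adjusted p = 0.962), and without hypertonic replicate 2 it was 2.27 (edgeR adjusted p = 0.00262). BTG3, of the same family, stood at -0.76 ± 0.40 (edgeR adjusted p = 0.562) and NANOS3 at 1.38 ± 0.73 (edgeR adjusted p = 0.573). Of the 48 tested genes of the 4 lists, the profile over the 4 libraries closest to the mean profile of the 10 deadenylase genes, by Euclidean distance of centred log2 CPM, was that of TNRC6A, at a distance of 0.089. RC3H2 at 0.131 and RC3H1 at 0.220 came next. TNRC6A measured 2.40 and 3.09 RPKM in hypertonic and 3.40 and 2.71 RPKM in isotonic libraries (-0.19 ± 0.39; edgeR adjusted p = 0.975).

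The main variation among the 10 genes lay between the 2 hypertonic libraries. The absolute log2 ratio of the replicates had a median of 0.70 and a maximum of 1.81 in the hypertonic group, where it exceeded 1 for 4 genes, and a median of 0.33 and a maximum of 0.66 in the isotonic group, where it exceeded 1 for 0 genes. The direction followed gene span. Of the 6 genes that span 84.0 to 157 kb, 5 were higher in hypertonic replicate 1 than in replicate 2, with a median log2 ratio of 0.82, led by CNOT2 at 1.31, CNOT6L at 1.10 and PAN3 at 1.03. Of the 4 genes that span 17.7 to 21.9 kb, 1 was, with a median of -0.63, and CNOT3 at -1.81 and PAN2 at -0.79 were the lowest. The Spearman correlation of span with this ratio was 0.84 over the 10 genes, and 0.14 for the ratio of the isotonic replicates. The same held over the 4828 expressed protein-coding genes, which share these libraries and their depth, at 0.46 for the hypertonic and -0.13 for the isotonic ratio. Among them the median ratio of hypertonic replicate 1 over 2 was -0.95 for 2200 genes under 25 kb, of which 23.3% were higher in replicate 1, and 0.60 for 987 genes of 80 kb or more, of which 84.9% were. Span and library were thus related in the same direction in the set and in the transcriptome, and the difference was within the hypertonic group. For the hypertonic to isotonic log2 fold change the Spearman correlation with span was -0.44 over the 10 genes and 0.097 over the expressed coding genes. Its median was -0.17 for the 6 long and -0.09 for the 4 short deadenylase genes, and -0.19 for coding genes of 80 kb or more and -0.41 for those under 25 kb.

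**Figure D3:**
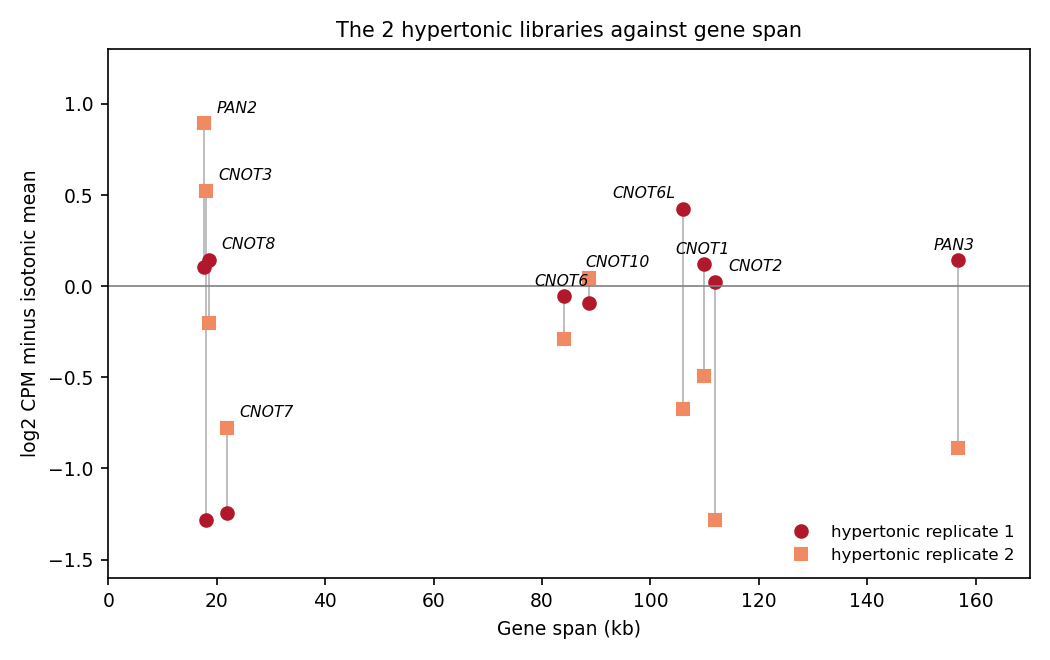
Log2 CPM of each deadenylase gene in hypertonic replicates 1 (circles) and 2 (squares), less the mean of the isotonic libraries, against gene span in kb. Replicate 1 lies above replicate 2 for 5 of the 6 genes of 84.0 kb or more and below it for 3 of the 4 genes of 21.9 kb or less.

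The promoters of the genes at both ends of this replicate difference are shown because their sequences differ in make-up; these 4 were chosen after the values had been seen. Each is the 250 bases before the RefSeq start (GRCh38.p14), which lies 0 to 53 bases from the deposited gene end, printed 5′ to 3′ on the strand of the gene, with CCAAT and its reverse complement ATTGG in capitals. CNOT3 (chr19:54137512-54137761, plus strand) and PAN2 (chr12:56334001-56334250, minus strand) were higher in hypertonic replicate 2, and CNOT2 (chr12:70242768-70243017, plus strand) and CNOT6L (chr4:77819369-77819618, minus strand) in hypertonic replicate 1.
CNOT3: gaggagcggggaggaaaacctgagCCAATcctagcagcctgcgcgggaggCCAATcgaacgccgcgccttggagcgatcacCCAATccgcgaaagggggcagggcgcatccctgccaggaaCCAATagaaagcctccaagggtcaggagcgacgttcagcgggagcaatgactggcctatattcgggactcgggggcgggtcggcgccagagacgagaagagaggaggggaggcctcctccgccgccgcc
PAN2: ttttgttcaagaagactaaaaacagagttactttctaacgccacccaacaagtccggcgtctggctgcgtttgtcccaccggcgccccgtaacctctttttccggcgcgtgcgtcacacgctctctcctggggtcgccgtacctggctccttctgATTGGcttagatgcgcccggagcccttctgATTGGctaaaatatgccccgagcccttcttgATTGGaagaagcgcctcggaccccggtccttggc
CNOT2: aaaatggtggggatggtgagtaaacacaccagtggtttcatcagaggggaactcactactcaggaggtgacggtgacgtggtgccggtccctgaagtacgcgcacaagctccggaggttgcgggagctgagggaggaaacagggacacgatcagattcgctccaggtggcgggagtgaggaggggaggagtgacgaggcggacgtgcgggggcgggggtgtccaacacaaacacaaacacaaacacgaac
CNOT6L: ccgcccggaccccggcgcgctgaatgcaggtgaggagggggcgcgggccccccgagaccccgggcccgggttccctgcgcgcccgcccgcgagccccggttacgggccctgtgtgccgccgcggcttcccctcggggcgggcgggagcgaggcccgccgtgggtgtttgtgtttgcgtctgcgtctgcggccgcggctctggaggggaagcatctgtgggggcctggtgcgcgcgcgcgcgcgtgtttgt

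CCAAT, the core of the element that NF-Y binds, occurred 4 times in the CNOT3 and 3 times in the PAN2 sequence, counted on both strands, and 0 times in those of CNOT2 and CNOT6L. Of all 35116 RefSeq promoters cut in the same way, 9.53% held at least 2 copies and 2.93% at least 3. GGGCGG, the GC box, occurred 4 times in the CNOT6L sequence, 1 time in CNOT2, 1 time in CNOT3 and 0 times in PAN2, and 24.3% of all promoters held at least 2; its matches shared 0 bases with those of CCAAT. Promoter entries matched 8 of 10 genes, and 7 were used, since that of CNOT10 lay 10396 bases from the deposited start. In the other used promoters CCAAT occurred 1 time in CNOT6 and 0 times in CNOT8 and PAN3. GGGCGG occurred 3 times in CNOT6, 1 time in PAN3 and 0 times in CNOT8. The log2 ratio of hypertonic replicate 1 over 2 was 0.23 for CNOT6, 1.03 for PAN3 and 0.35 for CNOT8. TGACGTCA, the cAMP response element, was found in 0 of the 7 windows, against 1.65% of all promoters. These matches describe the letters alone, and no binding was measured.

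Reads on the opposite strand of the deadenylase genes made up a larger share in hypertonic libraries. The antisense share of a gene's reads was above both isotonic values in both hypertonic libraries for 9 of 10 genes, all but CNOT6L, beside 45.2% of 4734 expressed protein-coding genes with an antisense entry. CNOT2, CNOT6 and CNOT10 had at most 10 antisense counts in any library and PAN3 at most 11. Of the 6 deadenylase genes with enough antisense reads to be tested 6 were above, beside 59% of the genes tested on both strands. The filter asks for reads in only as many libraries as 1 group holds, so entries high in the hypertonic group alone can pass it. PAN3 passed in this way, with 11 and 9 antisense counts in hypertonic and 6 and 5 in isotonic libraries. Such entries count as above by selection, among the 6 genes as among all antisense entries here and below. Over all genes antisense reads were 8.60 and 6.03% of gene counts in hypertonic and 3.17 and 3.36% in isotonic libraries, and the library protocol mentions a strand-specific step for certain samples without naming them, so the part of library strandedness in these values was not tested. Tested as a separate table of 9815 antisense entries, an analysis added after the data were seen, edgeR called 2149 higher, or 21.9% of entries, and 0.0102% lower in hypertonic libraries. Of the 6 deadenylase genes 1 was called, CNOT8, and for 4 of 6 both hypertonic libraries lay above both isotonic ones in CPM, beside 64.4% of all antisense entries. These CPM and call counts are near the background and describe the libraries as much as these genes. Total count and upper quartile scaling, under which calls of single antisense entries are given below, called 3105 and 2723 antisense entries, against 2150 in the main test.

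CNOT8 had 376 and 46 antisense counts in hypertonic and 15 and 15 in isotonic libraries, which was 27.9 and 5.33% of its reads in hypertonic and 0.810 and 2.48% in isotonic libraries. Isotonic replicate 1 fell below the cutoff of the expression filter, so CNOT8 antisense relied on hypertonic libraries to pass it. The antisense log2 fold change was 3.98 ± 0.99 (edgeR adjusted p = 0.0107). Without hypertonic replicate 1 it was 1.67 (edgeR adjusted p = 0.115), without isotonic replicate 1 it was 3.50 (adjusted p = 0.401) and without isotonic replicate 2 it was 4.53 (adjusted p = 0.170). The size thus rests largely on hypertonic replicate 1. PAN2 had 207 and 157 antisense counts in hypertonic and 65 and 42 in isotonic libraries, or 47.2 and 26.8% of its reads against 17.2 and 16.5% (1.99 ± 0.75; edgeR adjusted p = 0.0622). It was called with total count scaling (adjusted p = 0.0243), upper quartile scaling (0.0417) and DESeq2 (0.0403), and without hypertonic replicate 1 (1.69, edgeR adjusted p = 0.0348) or 2 (2.22, adjusted p = 0.000797), but not without isotonic replicate 1 (1.76, adjusted p = 0.640) or 2 (2.18, adjusted p = 0.490). CNOT7 had 1088 and 323 antisense counts in hypertonic and 460 and 269 in isotonic libraries (1.22 ± 0.78; edgeR adjusted p = 0.257). In hypertonic replicate 1 more reads of the CNOT7 locus were antisense than sense, at 50.4%, against 16.9% in hypertonic replicate 2 and 7.73 and 14.0% in isotonic libraries. VPS37A, which starts on the opposite strand within the CNOT7 locus, measured 0.758 and 0.835 RPKM in hypertonic and 1.24 and 1.03 RPKM in isotonic libraries. ZDHHC2, on the same opposite strand, ends 164 bases from the end of CNOT7. It measured 0.904 and 0.793 RPKM in hypertonic and 1.07 and 0.971 RPKM in isotonic libraries. CNOT6L had at most 4 antisense counts in any library.

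**Figure D4:**
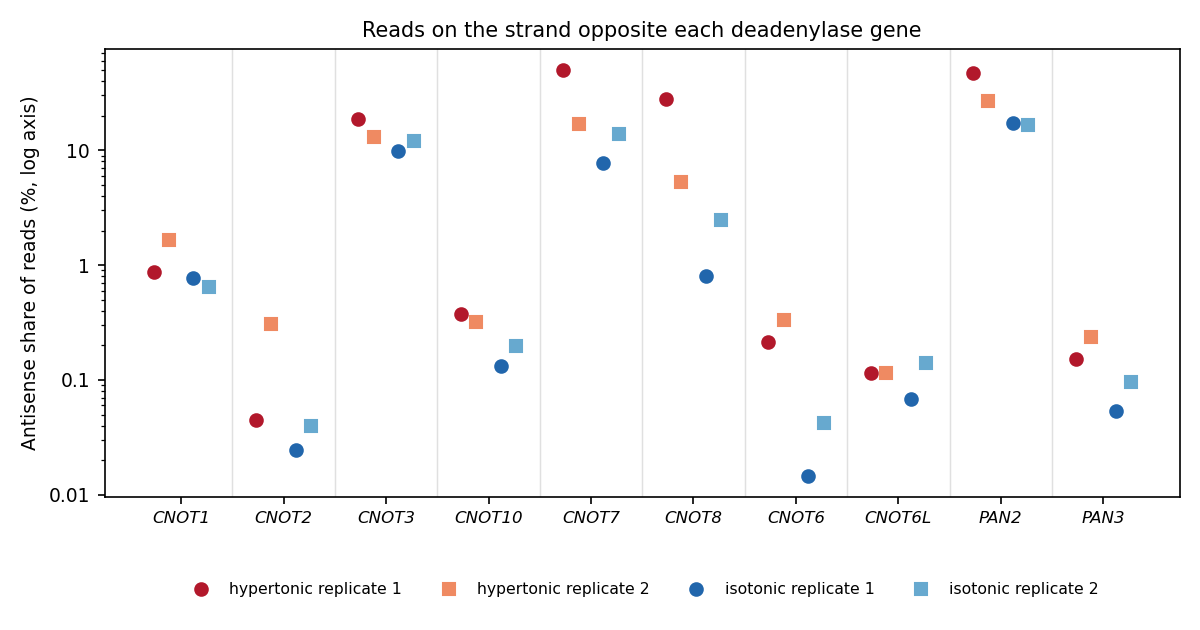
Antisense reads as a share of all reads of each deadenylase gene (%, log axis) in the 2 hypertonic (red) and the 2 isotonic (blue) libraries. The hypertonic shares lie above the isotonic ones for every gene but CNOT6L, with the highest in CNOT7 (50.4%) and PAN2 (47.2%) of hypertonic replicate 1.

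Transcription beyond the 3′ ends of the deadenylase genes was read on the strand of the gene, from the nearest gene lying wholly downstream. For most genes this was the antisense entry of the next gene. Genes that overlap a member were left out of this choice. SETD6 and LENG1, on the opposite strand, overlap the ends of CNOT1 and CNOT3 and reach past them, and are given apart. Within 10 kb of the end 5 genes had such an entry. For 3 of 5, the entries after CNOT1, CNOT7 and PAN3, both hypertonic values exceeded both isotonic ones in RPKM, and 1 of 5 passed the threshold. Of the 4 that were antisense entries 3 lay above in CPM and 1 was called, beside the 64.4 and 21.9% of all antisense entries given above. SETD6 antisense, nearer to CNOT1 than the entry counted here, is not among the 5, and its groups overlapped. It measured 2.15 and 1.34 RPKM in hypertonic and 1.02 and 1.35 RPKM in isotonic libraries (log2 fold change 0.58 ± 0.73, edgeR adjusted p = 0.569). Entries 10 to 15 kb away, for the other 5 genes, were chosen after their values were seen and are given as values.

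Downstream of CNOT1 the antisense entry of NDRG4, 6.3 kb beyond the end, had 677 and 360 counts in hypertonic and 124 and 107 in isotonic libraries. Relative to CNOT1 itself its level per length was 16.6 and 12.6% in hypertonic and 1.92 and 3.49% in isotonic libraries. The log2 fold change was 2.32 ± 0.77 (edgeR adjusted p = 0.0379); without hypertonic replicate 1 the call held (1.70, adjusted p = 0.0118), while without isotonic replicate 1 the adjusted p was 0.651, without isotonic replicate 2 it was 0.437 and with no expression filter it was 0.0563. ZDHHC2 antisense, after CNOT7, measured 0.172 and 0.152 RPKM in hypertonic and 0.0679 and 0.0342 RPKM in isotonic libraries (1.68 ± 0.74; edgeR adjusted p = 0.104), and was called with total count scaling (adjusted p = 0.0378) and without hypertonic replicate 2 (edgeR adjusted p = 0.000324). This stood beside a CNOT7 level that was itself lower, so that the entry had 12.3 and 5.66% of the CNOT7 level in hypertonic and 1.35 and 1.18% in isotonic libraries.

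FLT1 antisense, 5.0 kb after PAN3, measured 0.122 and 0.0471 RPKM in hypertonic and 0.0332 and 0.0200 RPKM in isotonic libraries (1.76 ± 0.79; edgeR adjusted p = 0.109); the log2 fold change was 0.53 without hypertonic replicate 1 (edgeR adjusted p = 0.464), and total count scaling called it (adjusted p = 0.0438). KCNMB4, a potassium channel subunit gene 11.3 kb after CNOT2 on the same strand, measured 1.38 and 0.291 RPKM in hypertonic and 0.266 and 0.170 RPKM in isotonic libraries (2.08 ± 0.77; edgeR adjusted p = 0.367). Its groups overlapped in CPM, at 138 and 21.0 in hypertonic and 22.1 and 15.5 in isotonic libraries, and its log2 fold change was 0.12 without hypertonic replicate 1. GEMIN5 antisense, after CNOT8, relied on hypertonic libraries to pass the expression filter, since isotonic replicate 1 fell below its cutoff. The entry had 120 and 15 counts in hypertonic and 11 and 11 in isotonic libraries (2.78 ± 1.01, edgeR adjusted p = 0.0530). Without hypertonic replicate 1 this was 0.51 (edgeR adjusted p = 0.748), while RLE factors (0.0438), total count (0.0416), upper quartile (0.0285) and DESeq2 (adjusted p = 0.0421) called it. RPL23AP43, a pseudogene 11.8 kb after CNOT10 whose reads may be shared with near-identical copies, had 39 and 9 counts in hypertonic and 1 and 2 in isotonic libraries (edgeR adjusted p = 0.265). It passed the expression filter through the hypertonic group alone, so its higher hypertonic values follow in part from selection.

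The other wholly downstream entries did not separate the groups in RPKM. LENG1 antisense, which overlaps the end of CNOT3 and lies nearer to it than TMC4, did separate them. It measured 0.280 and 0.863 RPKM in hypertonic and 0.210 and 0.197 RPKM in isotonic libraries (log2 fold change 1.33 ± 0.82, edgeR adjusted p = 0.235). In CPM 64.4% of all antisense entries lay above in this way. TMC4 antisense, 4.4 kb after CNOT3, measured 0.328 and 0.950 RPKM in hypertonic and 0.291 and 0.443 RPKM in isotonic libraries, and SCGB3A1 antisense after CNOT6 had 20 and 7 counts in hypertonic and 23 and 5 in isotonic libraries. CNPY2, 114 bases after PAN2, is a protein-coding gene on the strand of PAN2. It measured 0.514 and 2.15 RPKM in hypertonic and 1.40 and 1.25 RPKM in isotonic libraries. These levels rest on few reads, 8 and 26 counts in hypertonic and 31 and 15 in isotonic libraries. The snoRNA gene SNORD75, after CNOT6L, had too few reads to be tested. Upstream of CNOT3 on its strand, PRPF31 measured 0.354 and 2.12 RPKM in hypertonic and 0.716 and 0.777 RPKM in isotonic libraries, low in hypertonic replicate 1 and high in replicate 2 as CNOT3 was. On their own strands 27 genes overlapped a deadenylase gene or lay within 10 kb of its ends, 21 were tested and 0 were called by edgeR, with adjusted p of 0.291 or more. The groups did not overlap in CPM for 4 of these 21: VPS37A was lower, and TMC4, FLT1 and the cytokine gene IL23A, 4.8 kb upstream of PAN2, were above. That is 1 of 21 beneath, beside 17.5% of all genes tested, and 3 of 21 above, beside 22.5%, so neither count exceeds the background. FLT1 was near the floor, at no more than 0.00323 RPKM in any library. IL23A measured 0.299 and 0.577 RPKM in hypertonic and 0.0443 and 0.0752 RPKM in isotonic libraries (2.87 ± 0.90, edgeR adjusted p = 0.291). With 16 and 24 counts in hypertonic and 3 and 3 in isotonic libraries, it passed the expression filter through the hypertonic group alone. On their own strands TMC4 and FLT1 fell below the cutoff in isotonic replicate 1, so they too relied on hypertonic libraries to pass.

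**Figure D5:**
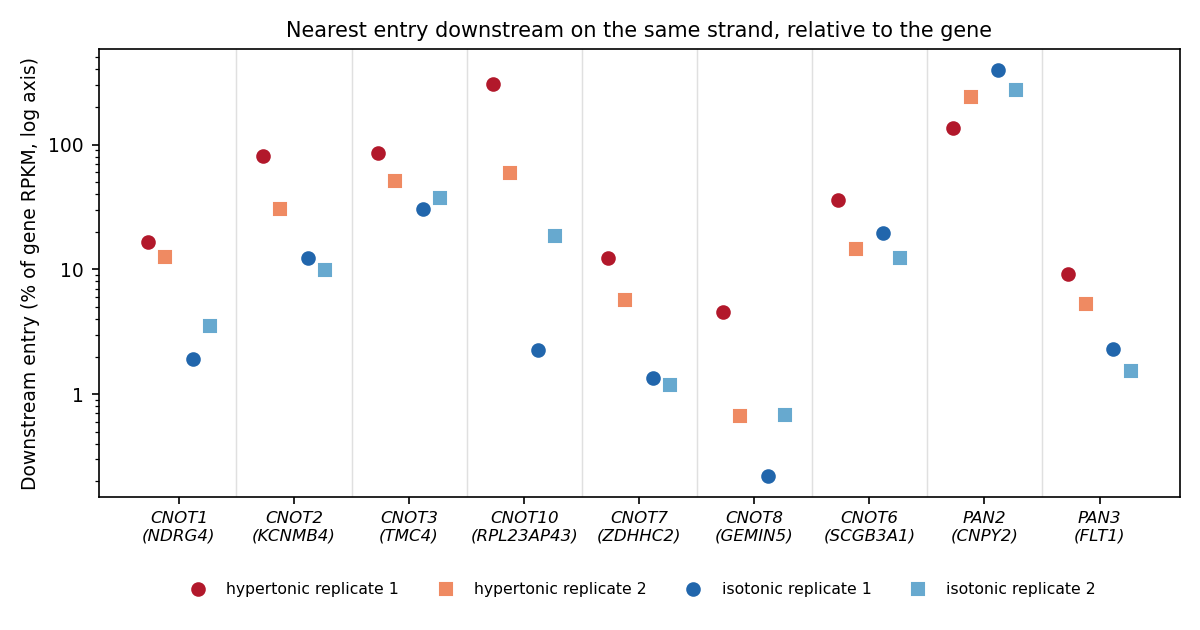
Level per length, on the strand of each deadenylase gene, of the nearest gene lying wholly downstream (named in brackets), as a percentage of the deadenylase gene's own RPKM (log axis). Values are for the 2 hypertonic (red) and the 2 isotonic (blue) libraries. CNOT6L, whose entry was untested, is left out, as are SETD6 and LENG1, which overlap the ends of CNOT1 and CNOT3. NDRG4 antisense stands at 16.6 and 12.6% of CNOT1 in hypertonic and 1.92 and 3.49% in isotonic libraries; entries over 10 kb away (after CNOT2, CNOT10, CNOT8 and CNOT6) were chosen after their values were seen.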

How the data were processed

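The authors deposited 1 table per library with, for each gene and strand, a length, an RPKM and an estimated count of reads (expected count), meanings read from the values since no header names them. Tools named in the submitters' processing notes are STAR 2.5.3a, Bowtie2 2.3.3, bedtools 2.16.2 and CASAVA 1.8.2, with GRCh38 (hg38) as build and an annotation release not given in the sources used here. The deposited RPKM divides the count by the counted length and by 1 constant per library. For the deadenylase genes the counted length was the whole gene span, introns included, less up to 1.12% shared with other genes. From 73.9 to 79.6% of low expected counts lay within 0.01 of a whole number, and all were rounded. Strand and gene type came from GENCODE 29 by Ensembl identifier, leaving out 304 genes (0.165 to 0.209% of counts) and 48 shared-region entries (3.11 to 3.48%).

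Sense counts (25068625 and 20870648 hypertonic, 41932649 and 21865138 isotonic) went into edgeR 4.0.16 (R 4.3.3) (TMM factors 0.947 and 1.22 hypertonic, 0.974 and 0.887 isotonic; default filter; quasi-likelihood; Benjamini-Hochberg over all genes), after a check on simulated data. The SE is the log2 fold change divided by the square root of F. Antisense entries were fitted separately. CPM uses effective library sizes, so group order can differ between CPM and RPKM. No molecular identifiers are named, so counts are of reads. DESeq2 1.42.0, limma 3.58.1, other scalings, no filter, summed strands, replicate blocks and left-out libraries were alternatives. Ratios used exact permutation tests by full enumeration, in Python 3.11.15 with pandas 2.3.3, scipy 1.17.1 and matplotlib 3.10.9. The text names all 10 members, the 3 genes with the smallest p in each of 4 lists, the 3 closest in profile and, of the neighbours within 10 kb, those downstream, those whose groups do not overlap and a few that overlap a member; 5 neighbours farther away were chosen after their values were seen. Members and lists were chosen with earlier results of these data known.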

Additional observations from a re-analysis of the deposited data

How the results depend on the processing

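The 10 deadenylase genes had 0 calls under every alternative except the fit without hypertonic replicate 2, which called 1 (range without 1 library 0 to 1). At an unadjusted p under 0.05 the count was 0 with total count scaling, upper quartile scaling, summed strands, limma-trend on RPKM, and both block fits, and 0 to 5 without 1 library, with 5 lower without hypertonic replicate 1, in a fit where 10.8% of all genes were lower and 11.8% higher at that p. Genes with both hypertonic libraries below both isotonic ones numbered 2 with RLE factors and with DESeq2, 0 with total count, 6 with summed strands and 3 with RPKM. The background share is given for the main test only, at 17.5% of all genes tested and 38.7% of expressed coding genes, so these counts are not read as results. Without 1 library, 1 group is a single library and such an order arises more easily, and there the count was 1 to 6. The median log2 fold change reversed to 0.081 (total count), 0.040 (upper quartile) and 0.051 (without hypertonic replicate 2; range -0.44 to 0.051). The scaling moved single genes likewise. With total count scaling the log2 fold change was 0.029 for CNOT1, 0.20 for CNOT3, 0.21 for CNOT10, 0.0081 for CNOT6, 0.13 for CNOT6L, 0.14 for CNOT8, 0.016 for TNRC6A and 0.12 for CNPY2. With upper quartile scaling it was 0.047 for CNOT1, 0.033 for CNOT3, 0.17 for CNOT10, 0.0065 for CNOT6, 0.19 for CNOT6L, 0.15 for CNOT8 and 9.39e-05 for CNPY2. It was 0.073 for CNOT8 with summed strands, and on RPKM 0.012 for CNOT10 and 0.0068 for CNOT8. Without 1 library the ranges were -0.53 to 0.12 for CNOT1, -1.32 to 0.017 for CNOT2, -1.3 to 0.47 for CNOT3, -0.10 to 0.010 for CNOT10, -0.44 to 0.040 for CNOT6, -0.71 to 0.42 for CNOT6L, -0.34 to 0.24 for CNOT8, -0.92 to 0.14 for PAN3, -1.01 to 0.14 for CNOT4, -1.18 to 0.38 for CNPY2 and -0.88 to 1.20 for PRPF31. They were -0.020 to 1.87 for CNOT7 antisense, -0.41 to 0.74 for CNOT3 antisense and -0.65 to 1.08 for SCGB3A1 antisense, and for the log2 ratio differences -0.48 to 0.38 for CNOT6 to CNOT6L and -0.036 to 1.78 for PAN2 to PAN3. CNOT7 and PAN2 kept their sign in all 14 alternatives. Calls over all genes numbered 0 in the main test, 916 without a filter, 731 with DESeq2 and 0 to 4918 without 1 library (4918 without hypertonic replicate 2). Antisense calls numbered 2150 in the main test, 1289 with limma-voom and 0 to 5112 without 1 library, and deadenylase genes with an antisense call numbered 2 with total count, upper quartile and DESeq2 and 0 to 3 without 1 library. Same-numbered libraries deviated with a correlation of 0.0458, so the numbers are not taken as pairs; the replicate block called 384 genes and the crossed replicate block 428, and under the block the NDRG4 antisense adjusted p was 0.102 in edgeR. The cause of these shifts was not tested. With 2 libraries a group and 1 of them apart, the interval held both 0 and a halving for 7 of 10 genes. PAN2 and CNOT3 had the lowest mean CPM, and the antisense entries of CNOT2, CNOT6, CNOT6L and CNOT10 were too sparse to test.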
